A study of Mus musculus with 9 samples.

Results

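Neonatal mouse cardiomyocytes (CMp) were compared with undifferentiated mouse embryonic stem cells (mES) across the transcriptome. The comparison used 3 CMp arrays and 3 mES arrays, 6 of the 9 arrays of the series, chosen by their labels alone. Of 19057 genes with a probe of their own, 10800 were tested. The CMp samples were purified from hearts of mice aged 1 day, and the mES samples were of the line named TBV2. No strain, genotype change or transgene is given for either group, and all cells were untreated. The growth notes describe primary cells, purified and cultured, for both groups alike, although mES is a stem cell line. The remaining 3 arrays, of adult cardiomyocytes, entered the fit but are not described. Total RNA was labelled as biotin cRNA and hybridised to Illumina bead arrays. The labels do not name the animals or cultures behind each array, so a p-value here reflects only how far these samples differ among themselves, which may be technical. The arrays also measure bulk RNA, in which fewer cells of a type and less RNA per cell cannot be told apart.

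Embryonic stem cells divide fast and can form every cell type of the body. Nodal, FGF and Wnt signals steer whether they renew or differentiate, and E-cadherin holds them in compact colonies. Heart muscle cells leave the cell cycle soon after birth and are built around contraction, membrane invaginations such as caveolae, matrix attachment and control by cyclic nucleotides. The account below follows the routes by which a cell receives signals, attaches to its neighbours, processes and exports RNA, moves cargo and sets its transcription factors.

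Levels are quantile-normalised intensities on the log2 scale, corrected for background. A log2 change is CMp minus mES, with the standard error (SE) of the limma fit and a p-value adjusted by Benjamini-Hochberg over all 10800 genes. A gene rose or fell where its adjusted p was under 0.05. Where a gene's tested probe was detected on no array of a group, the fold is a lower bound and is written "at least", computed with each undetected value set no lower than the dimmest detected probe of its array. A gene was switched on where it was detected on 3 of 3 CMp arrays and, by every probe, on 0 of 3 mES arrays, and switched off in the opposite case. By these rules 8004 genes (74.1%) differed, 3818 (35.4%) higher and 4186 (38.8%) lower in CMp, and 5766 (53.4%) differed at least 2-fold. In 8404 genes (77.8%) the 2 groups did not overlap. The median log2 change of all genes was -0.09. Switched on were 919 genes (8.51%), and switched off 714 (6.61%). Each gene stands on its brightest kept probe, and where a gene had several, a dimmer probe often moved less. Among genes named below the dimmest change was 0.80 for Ldb3, 0.50 for Pik3r1, 0.27 for Rbfox1, 0.25 for Med14, -1.06 for Lin28a and -0.78 for Nup133. In Prpf31, Ddx6 and Med22 a dimmer probe had the opposite sign, at -1.05, -0.58 and -0.87. With most genes called, the counts of a family below are read against these shares.

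The arrays were of similar quality, with 36.2% to 39.6% of probes detected. CMp replicate 1 stood apart within its group. Its level lay at least 1 log2 unit from both other CMp arrays, in the same direction, in 788 genes, against 3 genes for each of the other CMp arrays and 0 to 73 for the mES arrays. The labelled cell types matched their markers. All 8 cardiomyocyte markers rose and all 8 pluripotency markers fell, of which 2 to 3 were still detected on each CMp array. Markers of other cells of the heart also rose in CMp, in 7 of 7 cases for fibroblasts, 7 of 7 for endothelial cells, 6 of 7 for smooth muscle and pericytes, 6 of 6 for leukocytes, 5 of 5 for erythroid cells and 4 of 4 for the epicardium. None of the fibroblast, leukocyte or epicardial markers was detected on an mES array. Summed over their markers, endothelial intensities were 17550 on CMp replicate 1 and 32840 and 31210 on the others, against 1102 to 1531 on the mES arrays. The fibroblast sum was 17240 to 22590 in CMp and 31.99 to 41.38 in mES. Erythroid sums were 92050 to 102200 in CMp and 30.02 to 48.25 in mES. The only tested Schwann and neural marker was detected on at most 1 CMp array. How far cells of these types carried the differences described below was not tested, and their values are given beside the families in which they move.

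**Figure D1:**
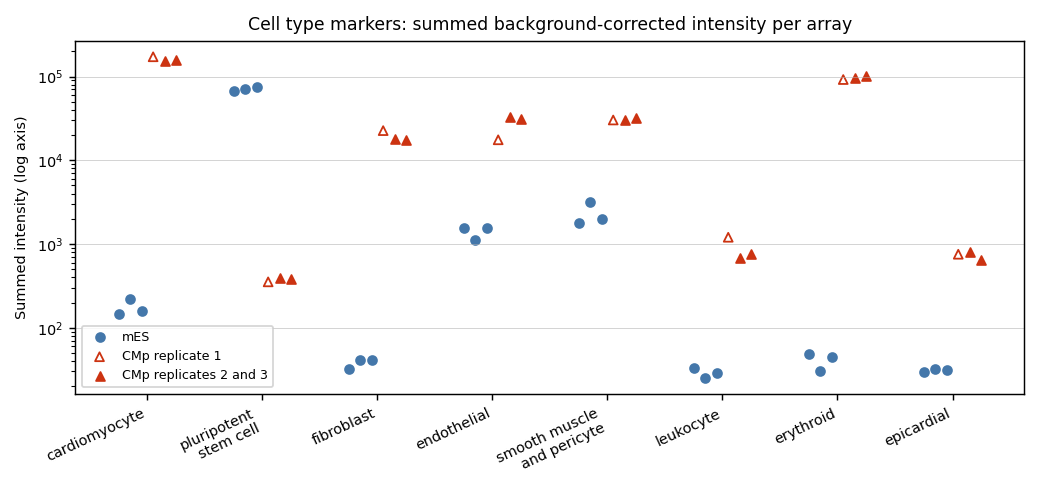
Summed background-corrected intensity of the markers of 8 cell types (x axis) on each array, on a log axis. Circles are mES arrays, open triangles CMp replicate 1 and filled triangles CMp replicates 2 and 3; the endothelial sum on CMp replicate 1, 17550, lies below the 32840 and 31210 of the other CMp arrays.

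Across families, the sharpest contrast lay between adhesion and signalling genes on one side and RNA processing and transcription machinery on the other. Of 196 genes of adhesion and guidance, 124 rose and 39 fell, with a median log2 change of 1.24. Of 423 signalling genes 222 rose and 102 fell (median 0.69). RNA processing and transcription machinery went the other way, with 54 of 451 genes higher and 300 lower (median -1.02). Transport genes split, 182 higher and 201 lower of 551, and so did 617 transcription factors, 232 higher and 227 lower. Without CMp replicate 1 the counts were 128 and 39 for adhesion, 223 and 99 for signalling and 58 and 299 for RNA processing. Scaling the arrays by their medians alone shifted the median change of all genes to -0.59, and the share of higher genes among those called was 34.6% instead of 47.7%. Transport then gave 120 higher and 297 lower, and transcription factors 188 and 299. Families whose larger side or median turned under that scaling are named as such where they are described.

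**Figure D2:**
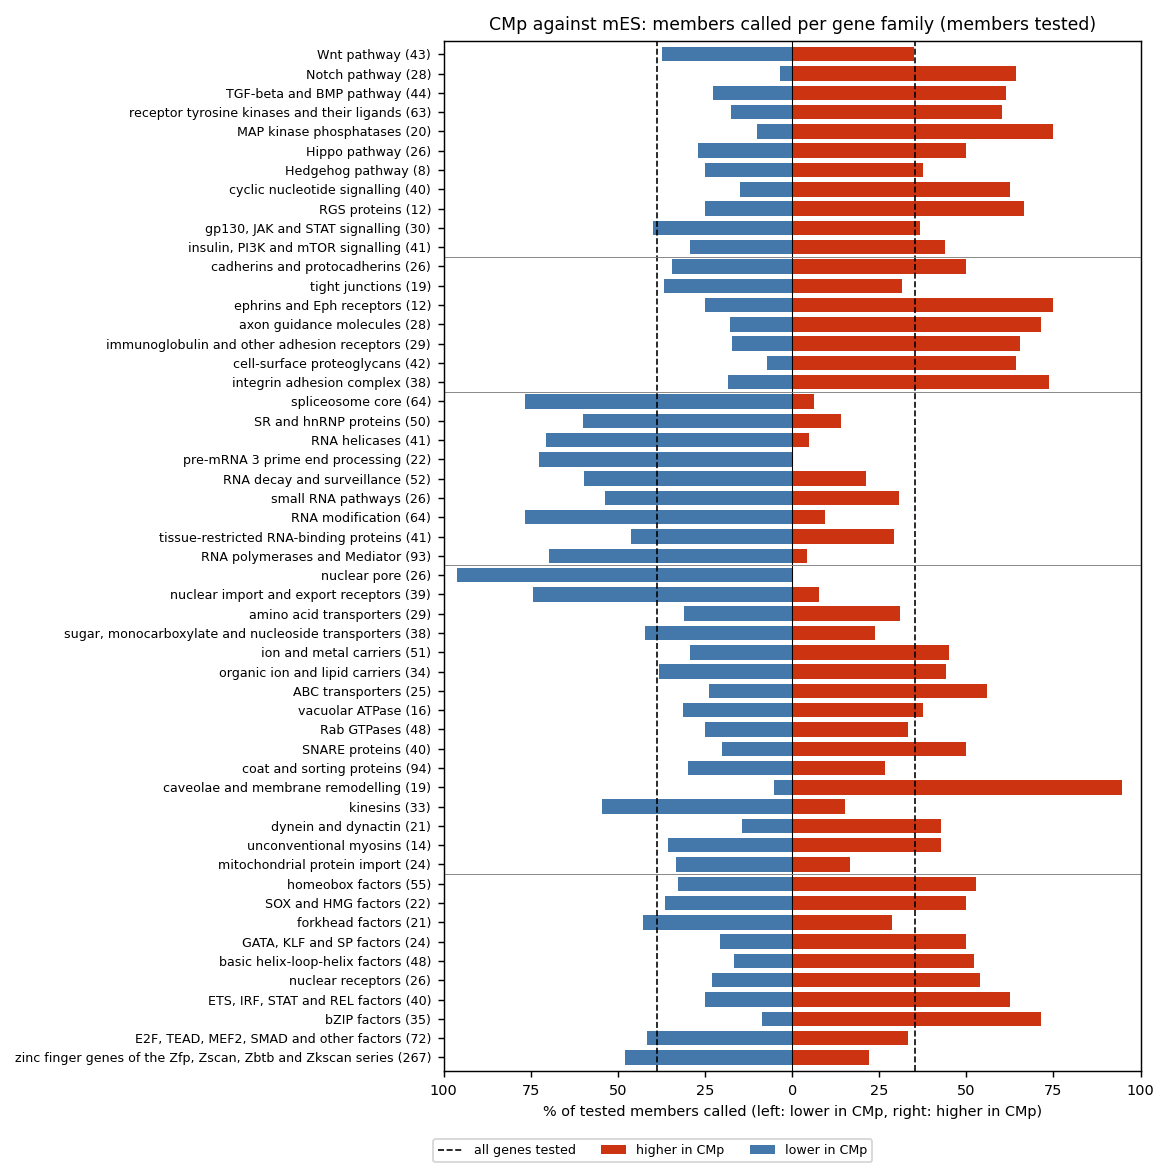
Share of tested members called lower (blue, to the left) and higher (red, to the right) in CMp for families with at least 8 tested members, the number tested in brackets. Dashed lines mark 38.8% lower and 35.4% higher among all genes tested; nuclear pore and RNA machinery bars reach past the left line, and caveolae and most adhesion bars past the right one.

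Nodal and its relatives, ligands of the TGF-beta family that keep stem cells ready to form mesoderm and endoderm, were low or undetected in CMp, while receptors and stores for TGF-beta itself rose. Lefty1, a secreted inhibitor of Nodal, was at 11.02, 10.86 and 11.10 on the mES arrays and 4.71, 4.64 and 4.91 on the CMp arrays. It was detected on no CMp array and was at least 64.9-fold lower there (adjusted p = 2.83e-10). Gdf3, a ligand related to Nodal, gave 10.31, 10.97 and 10.47 on the mES arrays and 4.68, 4.81 and 4.50 on the CMp arrays, at least 48.9-fold lower (adjusted p = 1.13e-09). Nodal itself was at 10.39, 10.63 and 10.45 in mES and 4.52, 5.01 and 4.58 in CMp, where 1 array detected it, a log2 change of -5.79 ± 0.18 (adjusted p = 7.93e-10). For all 3 genes the groups lay far apart, and a lack of overlap was a condition for naming them.

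Tgfbr2, the type II receptor of TGF-beta, moved in the opposite direction, from 4.94, 4.98 and 5.13 in mES to 10.87, 10.88 and 10.72 in CMp, a change of 5.81 ± 0.19 (adjusted p = 1.01e-09). Endoglin, Eng, a co-receptor abundant in endothelial cells, rose by 4.04 ± 0.20 (adjusted p = 2.2e-08). The ligand gene Tgfb2 rose by 2.25 ± 0.22, and Ltbp3, which holds latent TGF-beta in the matrix, by 3.61 ± 0.29. Bmp4, a ligand of the related bone morphogenetic protein branch, stood at 9.67, 9.47 and 9.76 on the mES arrays and 8.90, 9.64 and 9.37 on the CMp arrays, and the groups overlapped (log2 change -0.33 ± 0.24, adjusted p = 0.232). Its other kept probe gave -1.62, and Bmp4 passed as lower under median scaling and with kept probes averaged. Of 44 pathway members tested, 27 rose and 10 fell (median 0.90, or 0.73 with undetected members at their bound). Receptors rose in 8 of 12 cases.

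Members also moved both ways among receptor tyrosine kinases, the surface receptors of growth factors. Fgf4, the FGF through which stem cells prompt their own differentiation, was switched off, from 6.91, 6.67 and 7.03 in mES to 4.36, 4.65 and 4.38 in CMp, at least 3.73-fold lower (adjusted p = 1.87e-07). Fgf17 was at 9.34, 9.99 and 9.44 on the mES arrays and 4.27, 4.73 and 4.66 on the CMp arrays, at least 24.6-fold lower (adjusted p = 6.03e-09). Fgfr2, one of the receptors, fell by a smaller amount, -1.19 ± 0.20 (adjusted p = 0.000301). Higher in CMp were Flt1, a receptor of vascular endothelial growth factor, and Angpt2, a ligand of the endothelial Tie receptors. Flt1 was at 6.19, 6.12 and 6.49 on the mES arrays and 11.08, 12.41 and 12.23 on the CMp arrays, a change of 5.64 ± 0.31 (adjusted p = 4.16e-08). Angpt2 was switched on, at 9.61, 11.72 and 11.67 in CMp, at least 63.9-fold higher (adjusted p = 4.44e-07). On both genes CMp replicate 1 was the lowest CMp array, as it was for the endothelial marker sum. Flt1 is itself a marker in that sum, so its match with it is not separate evidence. Without CMp replicate 1 the fitted log2 change of Angpt2 was 7.10, against 6.40 with that array. Pleiotrophin, Ptn, a growth factor that binds heparan sulfate, rose by 5.68 ± 0.21 (adjusted p = 2.15e-09). Receptors of this class rose in 16 of 21 cases and ligands in 19 of 36, and the class as a whole gave 38 higher and 11 lower of 63 (median 1.14, or 0.92 at the bounds). Weaker kept probes of Angpt2 and Flt1 gave log2 changes of 1.39 and 1.26.

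Phosphatases that switch off MAP kinases, the relays beneath these receptors, rose in 15 of 20 cases, and Dusp14 and Dusp19 fell. Dusp8, which acts on the stress-activated kinases, was at 5.15, 5.07 and 4.86 on the mES arrays and 9.61, 9.76 and 9.55 on the CMp arrays, a change of 4.61 ± 0.16 (adjusted p = 1.61e-09). Dusp2 rose by 3.73 ± 0.19 (adjusted p = 2.95e-08).

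The Notch pathway, in which ligands on one cell trigger cleavage of a receptor on its neighbour, was higher in CMp from receptor to target. Notch1, a receptor, was at 7.32, 7.01 and 7.09 on the mES arrays and 9.33, 9.65 and 9.46 on the CMp arrays, a change of 2.34 ± 0.16 (adjusted p = 2.72e-07). Its target Hey2, a repressor of the ventricular wall and vessels, was switched on, from 4.55, 4.59 and 4.69 to 8.42, 7.79 and 7.66, at least 7.76-fold higher (adjusted p = 8.03e-08). Hey1, its relative, rose by 3.28 ± 0.24, and Nrarp, a target that dampens the pathway, by 3.49 ± 0.21 (adjusted p = 4.59e-07 and adjusted p = 8.87e-08). CMp and mES arrays did not overlap for any of these 4 genes, as in 77.8% of all genes. Furin, a protease that matures Notch receptors, rose by 3.67 ± 0.19, and Aph1a, a subunit of the gamma-secretase that releases the active fragment, was at least 19.4-fold higher by its tested probe. The other kept probe of Aph1a was detected on all mES arrays and gave 1.92. The ligand Jag1 was low in both groups, at 5.55, 5.43 and 5.31 on the mES arrays and 5.89, 5.99 and 6.33 on the CMp arrays, and did not pass the test (log2 change 0.63 ± 0.31, adjusted p = 0.0856). Fitted over the 6 arrays alone, the same Jag1 change had an adjusted p of 0.0091. Of 28 members 18 rose and 1, the inhibitor Numbl, fell (median 1.26, or 1.13 at the bounds). The Numbl fall, -0.55 ± 0.16, did not pass without background correction or in the authors' normalized matrix. All 3 tested receptors and 5 of 6 targets rose. Under median scaling 15 rose and 7 fell. Dll4 and Notch4, a ligand and a receptor best known from endothelium and named here after their values were seen, were among those that rose, by at least 1.71-fold and 2.69 ± 0.40. Notch4 stood at 9.02, 10.84 and 10.81 in CMp, lowest on replicate 1 like the endothelial marker sum, and without that array its change was 3.29.

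Wnt signalling, which supports self-renewal, had members that moved both ways, with 15 of 43 members higher and 16 lower (median -0.01), or 12 and 20 under median scaling. Of 11 receptors tested, 2 rose, 4 fell and 5 were not called (median 0.04). The Frizzled receptors Fzd5, Fzd7 and Fzd10 were among those that fell. Fzd5 was at 11.16, 10.91 and 11.18 on the mES arrays and 8.93, 8.60 and 8.56 on the CMp arrays, a change of -2.39 ± 0.22 (adjusted p = 2.23e-06), and Fzd10 was switched off, at least 6.37-fold lower (adjusted p = 7.27e-08). Fzd7 fell by 3.38 ± 0.37 (adjusted p = 9.36e-06), but gave -0.02 (adjusted p = 0.622) in the authors' normalized matrix, where its entry may belong to another probe. Fzd6 rose instead, from 5.44, 5.65 and 5.59 in mES to 8.25, 8.91 and 9.03 in CMp (3.17 ± 0.28, adjusted p = 1.88e-06). Secreted and surface inhibitors rose in 6 of 8 cases, among them Dkk3, at 6.15, 5.66 and 6.02 on the mES arrays and 10.71, 9.94 and 9.86 on the CMp arrays (4.22 ± 0.32, adjusted p = 5.11e-07). Sp5, a transcription factor induced by Wnt, fell by 3.66 ± 0.32 (adjusted p = 1.53e-06).

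**Figure D3:**
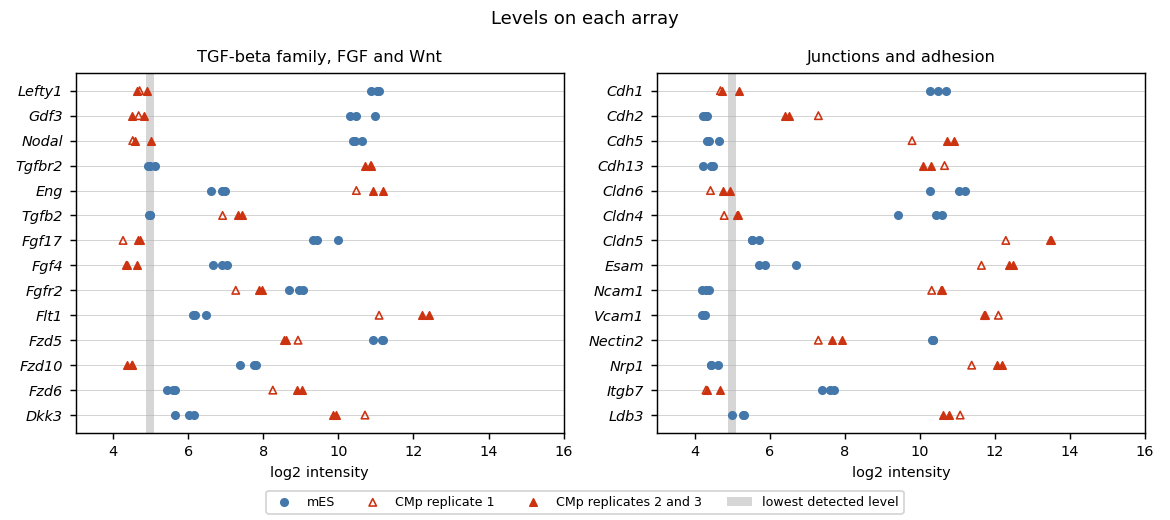
Log2 intensity (x axis) of named signalling genes (left) and adhesion genes (right) on each array; circles are mES, open triangles CMp replicate 1, filled triangles CMp replicates 2 and 3, and the grey band the range of the lowest detected level over the 6 arrays. Lefty1, Cdh1 and Cldn6 lie at 10.26 or higher in mES and near or inside the band in CMp, and Nrp1, Vcam1 and Cdh5 show the opposite.

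In the Hippo pathway, a kinase chain that restrains the coactivators Yap1 and Wwtr1 (TAZ), the coactivators moved apart and their targets rose. Wwtr1 was at 8.17, 7.89 and 8.10 on the mES arrays and 10.53, 11.13 and 10.97 on the CMp arrays, a change of 2.82 ± 0.18 (adjusted p = 1.45e-07). Yap1 was at 9.46, 9.50 and 9.33 on the mES arrays and 8.97, 8.53 and 8.94 on the CMp arrays, a fall of small size (-0.62 ± 0.16, adjusted p = 0.00504). Ankrd1, a target that is also a stress-responsive muscle protein, rose by 7.69 ± 0.19 (adjusted p = 1.43e-10) and Ccn2, a matrix protein, by 3.24 ± 0.17 (adjusted p = 2.73e-08). Wwc1, an upstream activator of the kinases, was switched off, at least 7.56-fold lower (adjusted p = 6.47e-08). The 26 members gave 13 higher and 7 lower (median 0.55), and under median scaling 11 and 9 with a median of -0.24.

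Hedgehog components were few. Gli2, a transcription factor at the end of the pathway, fell from 10.57, 10.81 and 10.80 to 5.96, 6.11 and 6.15 (-4.65 ± 0.15, adjusted p = 7.93e-10). Ptch1, the receptor that is also a target of the pathway, fell too (-2.998 ± 0.24, adjusted p = 9.49e-07). The second kept probes gave -1.08 for Gli2 and -0.90 for Ptch1. Of the other 6 members, the ligand Dhh was switched on (at least 2.03-fold higher), and the receptors Cdon (0.96 ± 0.28) and Smo (0.50 ± 0.17) rose. The Smo change was -0.08 under median scaling, and it no longer passed when mES replicate 1 or 3, or CMp replicate 2 or 3, was left out. That of Cdon was lost in the authors' normalized matrix.

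Cyclic nucleotides carry the signal of adrenaline to heart muscle, and their enzymes were higher in CMp. Cyclases rose in 7 of 8 cases, kinase subunits in 7 of 7 and phosphodiesterases in 7 of 12. Pde4b, a phosphodiesterase that degrades cyclic AMP, was switched on, from 4.58, 4.64 and 4.45 to 10.96, 11.71 and 11.48, at least 83.4-fold higher (adjusted p = 3.49e-09). Adcy6, a main cyclase of heart muscle, was at 5.36, 5.24 and 5.48 on the mES arrays and 9.68, 10.19 and 10.04 on the CMp arrays (4.61 ± 0.21, adjusted p = 1.3e-08). Adcy4 was at least 35.5-fold higher by its tested probe, with its lowest CMp level, 9.29, on replicate 1 against 10.68 and 10.47. The weakest kept probes of Pde4b and Adcy4 gave log2 changes of 2.40 and 1.39. Pde1b, regulated by calcium, fell by 1.84 ± 0.25 (adjusted p = 5.69e-05). Together 25 of 40 rose and 6 fell (median 1.40). Regulators of G-protein signalling rose in 8 of 12 cases, Rgs5 of pericytes and muscle at least 28.1-fold and Rgs4 at least 12.8-fold, while Rgs11, Rgs17 and Rgs19 fell.

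Signalling through gp130, JAK and STAT, the route of leukaemia inhibitory factor in stem cells, had no common direction (11 higher and 12 lower of 30, median -0.03). Osmr, the oncostatin M receptor, was switched on at 9.14, 9.56 and 9.64, at least 21.8-fold higher (adjusted p = 1.92e-08). Jak2 rose by 3.67 ± 0.17, and Cish, an inhibitor induced by the pathway, by 3.84 ± 0.15. Stat4 fell by 3.50 ± 0.20 (adjusted p = 6.84e-08). For insulin, PI3K and mTOR signalling 18 of 41 rose and 12 fell, a split that turned to 13 against 17 under median scaling. Pik3r1, the regulatory subunit of PI3 kinase, changed by 3.49 ± 0.30 and Deptor, an mTOR inhibitor, by -2.52 ± 0.18.

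At cell contacts, some cadherins fell and others rose. Cdh1, the E-cadherin of stem cell colonies, was at 10.69, 10.26 and 10.49 on the mES arrays and 4.69, 4.73 and 5.17 on the CMp arrays, and 1 CMp array detected it (-5.62 ± 0.30, adjusted p = 3.34e-08). Its entry in the authors' normalized matrix ranged only from 7.34 to 7.58 and may belong to another probe. Cdh2, the N-cadherin of heart muscle, rose from 4.33, 4.22 and 4.30 to 7.30, 6.42 and 6.51. The tested probe of Cdh2 was detected on no mES array, which gave at least 3.34-fold (adjusted p = 3.22e-06). Cdh5, the cadherin of endothelial junctions, stood at 9.79, 10.90 and 10.72 in CMp, lowest on replicate 1, and was at least 44.3-fold higher (adjusted p = 2.12e-08). Cdh13, which lacks a cytoplasmic tail, was at least 40.5-fold higher, and the protocadherin Pcdh7 at least 23.7-fold higher. Cadherins other than protocadherins gave 3 of 10 higher and 6 lower. Protocadherins rose in 8 of 11 cases and fell in 2.

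Claudins, which seal tight junctions, also moved both ways. Cldn6, found in embryonic epithelia, was at 11.21, 10.27 and 11.04 on the mES arrays and 4.42, 4.75 and 4.95 on the CMp arrays and at least 58.5-fold lower in CMp (adjusted p = 3.95e-09). Cldn4 fell by 5.11 ± 0.29 (adjusted p = 5.12e-08). Cldn5, the claudin of vessels, was at 5.52, 5.54 and 5.72 on the mES arrays and 12.29, 13.50 and 13.47 on the CMp arrays, a rise of 7.50 ± 0.29 (adjusted p = 3.46e-09). Esam, an adhesion molecule of endothelium, rose by 6.08 ± 0.30 (adjusted p = 2.02e-08). For Cldn5, Esam and Cdh5 the CMp replicate 1 level was the lowest of the 3, alongside the endothelial sum of 17550 on that array. Cldn5 and Cdh5 are themselves markers in that sum, so their match with it is not separate evidence. Tight junction genes together gave 6 higher and 7 lower of 19 (median -0.28).

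Adhesion receptors of the immunoglobulin class and others rose in 19 of 29 cases. Vcam1, an integrin ligand, was switched on, from 4.24, 4.19 and 4.28 to 12.09, 11.74 and 11.70, at least 115-fold higher (adjusted p = 4.71e-10). Ncam1, the neural cell adhesion molecule, also present in heart muscle, was at 4.38, 4.30 and 4.20 on the mES arrays and 10.32, 10.56 and 10.60 on the CMp arrays, at least 45.1-fold higher by its tested probe (adjusted p = 2.16e-09). The weakest kept probe of Ncam1 gave a log2 change of 1.37 and that of Vcam1 2.83. In the authors' normalized matrix the Vcam1 entry ranged only from 7.35 to 7.64 and may belong to another probe. Icam2, a receptor of endothelium and blood cells, was at least 46.5-fold higher. Nectin2, which acts beside E-cadherin, fell by 2.71 ± 0.20 (adjusted p = 4.91e-07). The other members that fell were Cadm1, Jam2, Nectin3 and Cd9, the last pair named after their values were seen.

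Molecules first known from nerve growth were among the largest rises at the cell surface. Neuropilin 1, Nrp1, a co-receptor of semaphorins and vascular growth factor, was at 4.44, 4.61 and 4.44 on the mES arrays and 11.38, 12.18 and 12.05 on the CMp arrays, at least 117-fold higher (adjusted p = 7.43e-10). Plxnd1, a semaphorin receptor of vessels, was at least 67.8-fold higher, and Sema7a, a membrane-bound semaphorin, at least 34.7-fold higher. Each of these genes had its lowest CMp level on replicate 1. Of 28 guidance genes 20 rose, and Sema3e, Sema4a, Sema4b, Sema4d and Robo1 fell, Sema3e and Sema4d being named after their values were seen. The falls of Robo1 and Sema4d were not called in the authors' normalized matrix, where the Robo1 entry may belong to another probe. Without CMp replicate 1 Sema4a fell by 1.11, against 1.73 with it. Ephrins and Eph receptors rose in 9 of 12 cases, such as Efna1 (3.51 ± 0.22, adjusted p = 1.09e-07), while Epha1, Epha2 and Efna4 fell, Epha1 at least 4.15-fold.

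Genes of attachment to the matrix were mostly higher in CMp. Of 38 integrins and their adaptors 28 rose and 7 fell (median 1.29, or 1.23 at the bounds). Integrins gave 10 higher and 4 lower of 15, and adaptors 18 higher and 3 lower of 23. Ldb3, a Z-disc protein that binds actinin, was at 5.30, 5.004 and 5.32 on the mES arrays and 11.07, 10.63 and 10.79 on the CMp arrays (5.62 ± 0.23, adjusted p = 5.18e-09). Lims2, of the complex of integrin-linked kinase, rose by 4.87 ± 0.40 (adjusted p = 1.08e-06), with 9.05 on CMp replicate 1 and 10.69 and 10.83 on the others. Itgb7, an integrin subunit of lymphocytes, was switched off, at least 6.04-fold lower (adjusted p = 7.34e-08). Cell-surface proteoglycans and their sulfation enzymes rose in 27 of 42 cases and fell in 3, the enzymes Hs3st3b1, Chst10 and Chst12. Biglycan, Bgn, a matrix proteoglycan secreted by fibroblasts among others, was at 5.74, 5.87 and 6.01 on the mES arrays and 12.50, 12.85 and 12.76 on the CMp arrays (6.83 ± 0.17, adjusted p = 1.43e-10), beside a fibroblast marker sum that was likewise high on all CMp arrays.

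The machinery of splicing was lower in CMp in nearly every part. Core spliceosome genes fell in 49 of 64 cases (median -1.40), against 38.8% of all genes, and proteins of the small nuclear ribonucleoprotein particles in 28 of 33 with 0 higher. Gemin4 and Gemin6, of the complex that assembles those particles, led the list. Gemin4 was at 11.04, 11.43 and 11.45 on the mES arrays and 6.77, 7.40 and 7.27 on the CMp arrays (-4.16 ± 0.20, adjusted p = 1.63e-08). Gemin6 was at 10.33, 10.05 and 10.10 on the mES arrays and 7.02, 6.68 and 6.46 on the CMp arrays (-3.44 ± 0.23, adjusted p = 2.03e-07). In both genes every CMp array lay well below every mES array, and a lack of overlap was a condition for naming them. The 4 genes that rose were Slu7, which helps choose the 3′ splice site (1.03 ± 0.24), Prpf39, Prpf31 and Crnkl1. Prpf31 did not pass under median scaling and became -0.40 when its kept probes were averaged, and the call of Crnkl1, named after its value was seen, did not survive dropping mES replicate 1 or 3, or CMp replicate 1 or 2.

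SR proteins and hnRNPs, which choose splice sites, fell in 30 of 50 cases and rose in 7 (median -0.61). Hnrnpf, an hnRNP that binds G-rich RNA, was at 10.68, 10.52 and 10.39 on the mES arrays and 9.18, 6.88 and 7.13 on the CMp arrays (-2.80 ± 0.54, adjusted p = 0.000678). CMp replicate 1 was far closer to mES than the other CMp arrays on this gene, and without it the change was -3.53. The exception in size was Srpk3, a kinase of SR proteins found in striated muscle, which was switched on, from 4.43, 4.64 and 4.44 to 10.04, 9.88 and 10.22, at least 33-fold higher (adjusted p = 6.76e-09).

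Most further steps of RNA life moved the same way. For cleavage and polyadenylation factors 16 of 22 fell and 0 rose (median -1.16). Nudt21, a cleavage factor that sets the choice of polyadenylation site, was at 12.34, 12.17 and 12.41 on the mES arrays and 10.57, 9.96 and 9.93 on the CMp arrays (-2.15 ± 0.23, adjusted p = 9.2e-06). Cpsf4l, a relative of a cleavage factor subunit, was switched off from 10.86, 10.78 and 10.92, at least 59-fold lower (adjusted p = 7.5e-11). RNA helicases fell in 29 of 41 cases, among them Ddx25 of germ cells (-4.84 ± 0.17). Ddx6 and Dhx58 passed as higher and are named after their values were seen. Ddx6 failed the test once mES replicate 1 or 3, or CMp replicate 2 or 3, was taken out, and became -0.17 under median scaling, and Dhx58 failed it without any single array other than CMp replicate 1. Exosome subunits, which degrade RNA from its 3′ end, fell in 11 of 14 cases, with Exosc5 at -2.88 ± 0.17 and Dis3, the catalytic subunit, at -3.21 ± 0.27. Other genes of RNA decay were more mixed. Deadenylation and decapping gave 8 higher and 16 lower of 29. Nonsense-mediated decay gave 2 higher and 4 lower of 9, near the 38.8% lower among all genes. Zfp36, which targets AU-rich mRNAs of early response genes for decay, rose from 8.55, 8.36 and 8.71 to 12.03, 11.91 and 11.82 (3.38 ± 0.15, adjusted p = 1.03e-08). Enzymes of tRNA and rRNA modification fell in 40 of 48 cases, among them Trmt6 (-2.62 ± 0.19). The full list of RNA modification genes gave 49 falls of 64, and 43 without CMp replicate 1. Adarb1, an adenosine deaminase that edits RNA, rose by 3.77 ± 0.40 (adjusted p = 7.96e-06), and by 4.37 without CMp replicate 1.

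Small RNA pathways gave 8 higher and 14 lower of 26 genes (median -0.69, or -0.37 at the bounds). Trim71, a repressor of mRNAs and a target of let-7, was switched off, from 10.70, 10.60 and 10.83 to 4.31, 4.49 and 4.23, at least 53.4-fold lower (adjusted p = 1.01e-10). Lin28a, which blocks maturation of let-7, was at 8.55, 8.99 and 8.54 on the mES arrays and 5.02, 4.49 and 4.37 on the CMp arrays, 1 of which detected it (-4.07 ± 0.22, adjusted p = 4e-08). Its relative Lin28b was at least 3.68-fold lower (adjusted p = 2.46e-07). In the piRNA pathway of germ cells Tdrd12 fell by 5.04 ± 0.15, while Mov10l1, a helicase gene that also has a transcript in heart, rose from 5.67, 6.11 and 6.11 to 10.58, 10.21 and 10.26 (4.39 ± 0.21, adjusted p = 1.47e-08).

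Tissue-restricted RNA-binding proteins moved both ways. Esrp1, a splicing regulator of epithelia, was at 10.65, 10.63 and 10.54 on the mES arrays and 4.38, 4.55 and 4.37 on the CMp arrays, at least 49.8-fold lower (adjusted p = 8.91e-11). Elavl2, an RNA-binding protein best known from neurons, changed by -4.42 ± 0.25, and L1td1, abundant in stem cells, by -5.03 ± 0.38. Mbnl1, the muscleblind protein that sets the splicing of muscle genes after birth, was at 7.32, 7.55 and 7.21 on the mES arrays and 11.68, 11.42 and 11.47 on the CMp arrays (4.16 ± 0.18, adjusted p = 8.02e-09). Quaking, Qk, rose by 3.75 ± 0.27, and Rbm24, a splicing factor of heart, by 1.23 ± 0.33 (adjusted p = 0.0053). Rbfox1, a splicing factor of muscle and neurons, was at least 14-fold higher (adjusted p = 7.77e-09), but gave 0.01 in the authors' normalized matrix, where its entry may belong to another probe. Celf1, which opposes Mbnl1 on many exons, changed by -0.57 ± 0.14 (adjusted p = 0.00308). Kept probes of Celf1 ranged from -1.22 to -0.57, and the lower kept probe of Mbnl1 gave 0.997. Overall counts were 12 higher and 19 lower of 41.

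The transcription machinery itself followed RNA processing, with 65 of 93 genes lower and 4 higher (median -0.99). RNA polymerase I and III subunits fell in 17 of 24 cases, Integrator subunits in 10 of 13 and Mediator subunits in 18 of 28. Gtf2e1, of the general factors of RNA polymerase II, was at 10.93, 11.10 and 11.27 on the mES arrays and 8.11, 8.12 and 7.93 on the CMp arrays (-3.05 ± 0.16, adjusted p = 3.52e-08). Gtf2h3, of the factor that opens the DNA, was at 11.18, 11.34 and 11.16 on the mES arrays and 7.86, 8.26 and 8.33 on the CMp arrays (-3.08 ± 0.16, adjusted p = 3.78e-08). Neither gene showed any overlap between the groups, a condition for being named. Ell3, an elongation factor of stem and germ cells, was at least 8.93-fold lower. The 4 higher genes were Med14 (2.16 ± 0.18), Med16, Ell and Med22, the last named after its value was seen. Ell became -0.08 and Med22 -0.01 under median scaling, the call of Med16 was lost there, and Med22 did not pass without mES replicate 1 or 2 or CMp replicate 1 or 2.

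Nuclear pores are the gates between nucleus and cytoplasm, built from nucleoporins in repeated rings. Their genes fell in 25 of 26 cases (median -1.80). The share is read against 38.8% lower among all genes. Nup160 was at 10.79, 10.64 and 10.91 on the mES arrays and 6.45, 7.31 and 7.21 on the CMp arrays (-3.79 ± 0.29, adjusted p = 5.34e-07). Nup43 was at 11.69, 11.82 and 11.80 on the mES arrays and 8.44, 7.80 and 7.92 on the CMp arrays (-3.72 ± 0.21, adjusted p = 4.81e-08). Nup107 was at 9.39, 9.35 and 9.38 on the mES arrays and 6.19, 6.18 and 5.74 on the CMp arrays (-3.34 ± 0.18, adjusted p = 3.59e-08). CMp and mES arrays were separated on each of them, which the rule for naming genes required. These 3 nucleoporins belong to the Y-shaped subcomplex that builds the outer rings. After the values were seen, the other subunits were looked up. Nup37 (-3.26 ± 0.35), Nup133 (-2.81 ± 0.18), Nup85 (-2.59 ± 0.16) and Seh1l (-2.31 ± 0.44) came next in the order of falls, so that the 7 largest falls of the 26 genes were all subunits of it. The place of Seh1l was narrow, as Ndc1 gave -2.28 and Nup205 -2.25, within the SE of Seh1l. Its weakest kept probe gave -1.06. On Seh1l CMp replicate 1 lay nearest to mES, and without it the change was -2.92. Sec13, a subunit shared with the coat of secretory vesicles, was at 12.49, 12.46 and 12.68 on the mES arrays and 12.42, 12.11 and 12.05 on the CMp arrays, the smallest change of the list (-0.35 ± 0.16, adjusted p = 0.0661). Nup98, which encodes a further subunit together with another nucleoporin, changed by -0.65 ± 0.22 (adjusted p = 0.0189), and did not pass once mES replicate 2 or CMp replicate 3 was dropped. The authors' normalized matrix gave 0.00 for Nup37, where its entry may belong to another probe. Sec13 passed the test as lower under median scaling and 4 other alternatives, one of them the fit without CMp replicate 1 (adjusted p = 0.0174).

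The partners of the pore fell with it. Transport receptors and export factors were lower in 29 of 39 cases and higher in 3, Ipo9, Thoc7 and Alyref2, of which Ipo9 and Thoc7 became -0.02 and -0.14 under median scaling. The call of Alyref2 was lost in the authors' normalized matrix. Genes of the Ran cycle, which gives transport its direction, fell in 6 of 6 cases and exportins in 5 of 6. Kpna2, an importin alpha of dividing cells, was at 8.96, 9.10 and 8.85 on the mES arrays and 6.56, 4.42 and 4.47 on the CMp arrays (-3.82 ± 0.61, adjusted p = 0.000179), again with CMp replicate 1 nearest to mES. Without that array the change was -4.53. Kpnb1, the importin beta that carries it, fell by 1.88 ± 0.23 on the log2 scale. Nxt1 and Nxt2, partners of the main mRNA export receptor, changed by -2.50 ± 0.15 and -2.97 ± 0.19 (adjusted p = 1.12e-07 and adjusted p = 1.29e-07).

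Caveolae, flask-shaped pits of the plasma membrane that are dense in muscle and endothelium, gave the mirror image. Caveolins, cavins and other membrane-shaping genes rose in 18 of 19 cases, against 35.4% of all genes (median 2.84, or 2.55 at the bounds). Cav1, the caveolin of endothelium and fibroblasts, was at 5.15, 5.91 and 4.80 on the mES arrays and 12.79, 13.39 and 13.44 on the CMp arrays (7.92 ± 0.29, adjusted p = 2.18e-09). Cavin2, a coat protein of the pits, was switched on, from 4.84, 4.40 and 4.39 to 11.61, 11.70 and 11.63, at least 100-fold higher (adjusted p = 1.82e-10). Trim72, a muscle protein that reseals torn membranes, was switched on at 10.39, 10.38 and 10.43, at least 42.3-fold higher (adjusted p = 4.4e-09). The muscle forms, named after their values were seen, rose as well, Cav3 at least 16.9-fold and Cavin4 by 4.72 ± 0.15. Cavin3 was at least 42.5-fold higher. Pacsin1, a neuronal membrane-bending protein, was the single fall (at least 4.02-fold lower, adjusted p = 2.42e-06). Endothelial marker sums were 17550 to 32840 on the CMp arrays, and the part of endothelial cells in the Cav1 level was not tested.

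**Figure D4:**
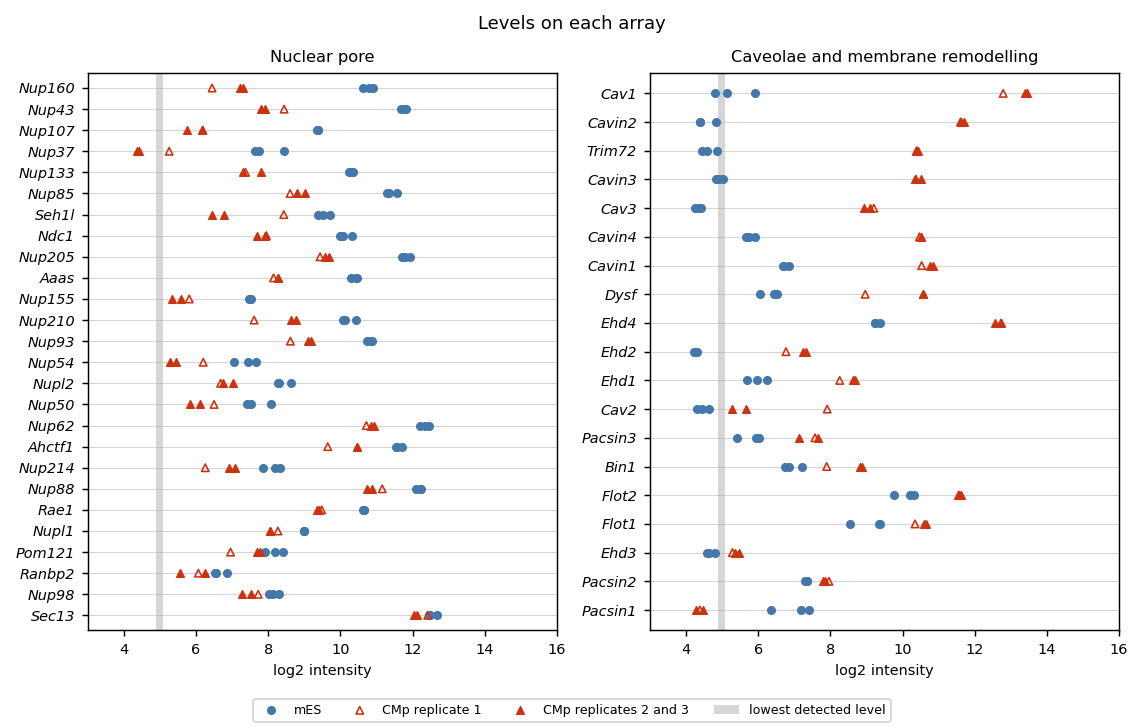
Log2 intensity (x axis) of the 26 tested nuclear pore genes (left, largest fall at the top) and the 19 tested genes of caveolae and membrane remodelling (right, largest rise at the top) on each array; circles are mES, open triangles CMp replicate 1, filled triangles CMp replicates 2 and 3, grey the range of lowest detected levels. By fitted change the 7 largest pore falls are subunits of the Y-shaped subcomplex, the last by a narrow margin, and Pacsin1 is the single gene at right that fell.

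Promoter sequences were set beside these families. RefSeq windows of 300 bases around the gene start (build GRCm38.p6) were available as a single entry for 6917 tested genes. The window of Nup107, on the minus strand at chr10:117792656-117792955, and those of Cav3, at chr6:112459255-112459554, and Cavin4, at chr4:48663264-48663563, both on the plus strand, are shown because each holds a match of one of the motifs counted. They were picked for that match and do not stand for their families. Capitals mark the ETS-type motif CCGGAAG on either strand in Nup107, the M-CAT motif CATTCC on either strand in Cav3 and the TATA motif TATAAA in Cavin4.
Nup107: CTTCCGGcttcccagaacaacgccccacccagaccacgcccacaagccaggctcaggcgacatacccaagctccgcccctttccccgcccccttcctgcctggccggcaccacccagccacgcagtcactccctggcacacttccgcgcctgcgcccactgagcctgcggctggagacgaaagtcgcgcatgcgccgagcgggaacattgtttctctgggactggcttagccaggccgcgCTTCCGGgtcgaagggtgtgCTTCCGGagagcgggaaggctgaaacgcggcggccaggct
Cav3: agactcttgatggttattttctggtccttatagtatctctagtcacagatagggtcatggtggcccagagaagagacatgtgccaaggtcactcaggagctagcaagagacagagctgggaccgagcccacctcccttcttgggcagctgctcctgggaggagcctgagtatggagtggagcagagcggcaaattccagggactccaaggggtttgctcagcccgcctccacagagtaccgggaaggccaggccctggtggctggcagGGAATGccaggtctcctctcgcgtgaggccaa
Cavin4: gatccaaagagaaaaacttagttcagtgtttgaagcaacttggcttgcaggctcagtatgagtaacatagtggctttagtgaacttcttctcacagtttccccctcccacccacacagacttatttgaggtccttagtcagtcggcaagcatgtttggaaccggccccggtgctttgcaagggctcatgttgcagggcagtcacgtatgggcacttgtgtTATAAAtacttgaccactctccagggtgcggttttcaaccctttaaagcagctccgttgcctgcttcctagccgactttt
The Nup107 window held 27 CpG dinucleotides, that of Cav3 6 and that of Cavin4 7. Over the families, the ETS-type motif occurred in 30.0% of 20 nuclear pore promoters, 34.9% of 43 core spliceosome promoters and 31.8% of 66 promoters of the polymerases and Mediator, and in 1 of 10 promoters of the caveolar list. The M-CAT and TATA motifs were each in 2 of the 20 pore promoters and 1 of the 10 caveolar ones, the same share. The ETS-type motif occurred in 18.8% of the promoters of tested genes and in 9.12% of all 22862 promoters with a single entry. Among genes at least 4-fold higher in CMp it was found in 6.18% of 842 promoters, and among those at least 4-fold lower in 21.4% of 740. The TATA motif went the other way, at 13.2% of the higher and 6.62% of the lower genes, beside 7.78% of tested genes. M-CAT matches were in 15.2% and 9.73%, beside 12.2%. A further motif counted, the E-box CACGTG, was in 6.18% and 11.9%, beside 10.3%. Promoters of the higher genes held a median of 16 CpG dinucleotides, and both the lower and the tested genes 21. The median was 26.5 for the pore, 23 for the core spliceosome, 24 for the polymerases and Mediator and 17 for the caveolar list. The ETS-type motif itself holds a CpG, and the part of CpG content in its shares was not tested. A match is a stretch of letters and not a bound site, and Nup133, also in the Y-shaped subcomplex, had no match of these motifs in its window.

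Among carriers of small molecules, 3 glucose transporters moved in different directions. Slc2a3, the high-affinity glucose transporter of embryonic cells and neurons, was at 13.52, 13.07 and 13.62 on the mES arrays and 5.99, 7.12 and 7.04 on the CMp arrays (-6.68 ± 0.36, adjusted p = 3.9e-08). Slc2a1, the general glucose transporter, fell from 13.14, 13.03 and 13.13 to 10.01, 10.62 and 10.76 (-2.64 ± 0.21, adjusted p = 8.58e-07). Slc2a4, the insulin-responsive transporter of muscle and fat, was switched on at 8.12, 7.14 and 7.29, at least 5.71-fold higher (adjusted p = 9.42e-07). Slc7a3, which imports cationic amino acids, fell by 6.14 ± 0.25 on the log2 scale. The thiamine carrier Slc19a2 fell by 2.85 ± 0.16, and Slc27a2, which activates very long chain fatty acids, was at least 27.9-fold lower. Amino acid transporters gave 9 higher and 9 lower of 29, but 6 and 14 under median scaling. Carriers of sugars, monocarboxylates and nucleosides gave 9 higher and 16 lower of 38, and 7 and 22 under that scaling.

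The sodium-calcium exchanger Slc8a1 was at least 158-fold higher by its brighter probe, and the other probe gave a log2 change of 1.59. The bicarbonate carrier Slc4a4 was at least 8.14-fold higher, but did not pass (adjusted p = 0.662) in the authors' normalized matrix, where its entry may belong to another probe. Ion and metal carriers gave 23 higher and 15 lower of 51, which became 17 and 19 under median scaling. ABC transporters rose in 14 of 25 cases and fell in 6. Abcc9, the regulatory subunit of the ATP-sensitive potassium channel of heart, was at least 22.3-fold higher (adjusted p = 1.74e-09), but gave 0.06 in that matrix, with the same doubt. Abcc4, an exporter of cyclic nucleotides, fell by 2.89 ± 0.23 (adjusted p = 6.8e-07).

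In vesicle traffic single isoforms differed widely, and the counts of whole families depended on the scaling. Rab25, a GTPase of epithelial recycling, was at least 6.08-fold lower, and Ap1m2, the epithelial subunit of a sorting adaptor, at least 7.43-fold lower. Rab27a, of secretory granules, fell by 2.58 ± 0.18. Rab3a, of regulated secretion, rose by 2.38 ± 0.20 and Copz2, a coat subunit, by 4.32 ± 0.28 (adjusted p = 1.27e-06 and adjusted p = 1.8e-07). Rab GTPases gave 16 higher and 12 lower of 48, which turned to 13 and 17 without CMp replicate 1 and to 11 and 23 under median scaling. SNARE proteins gave 20 and 8 of 40, and 9 and 15 under median scaling. Coat and sorting proteins gave 25 higher and 28 lower of 94, and 13 and 55 under median scaling.

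Among motors, kinesins fell in 18 of 33 cases and rose in 5. Kif18a, of the mitotic spindle, was at 9.19, 9.27 and 8.995 on the mES arrays and 5.13, 5.57 and 5.36 on the CMp arrays (-3.80 ± 0.17, adjusted p = 8.95e-09). Kif20b, of cytokinesis, was at 10.09, 10.06 and 10.14 on the mES arrays and 6.51, 6.40 and 6.32 on the CMp arrays (-3.68 ± 0.17, adjusted p = 9.69e-09). The fall of Kif18a was not called (adjusted p = 0.0838) in the authors' normalized matrix, where its entry may belong to another probe. Kif1b, a carrier of organelles, rose from 7.01, 7.49 and 7.43 to 10.14, 10.35 and 10.33 (2.96 ± 0.23, adjusted p = 6.22e-07). The other rises were Kif1c, Klc1, Kif13a and Klc4, the last pair named after their values were seen, with the call of Klc4 lost under median scaling and that of Kif13a in the authors' normalized matrix. Bicd2, an adaptor of the opposite motor dynein, rose by 2.70 ± 0.22 (adjusted p = 9.23e-07). Dynein and dynactin genes gave 9 higher and 3 lower of 21, and 4 and 9 under median scaling.

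Outside the zinc finger series, 350 transcription factors were tested, of which 173 rose and 99 fell (148 and 134 under median scaling). Of these, 57 were switched on and 32 off, against 8.51% and 6.61% of all genes. The 267 zinc finger genes of the Zfp, Zscan, Zbtb and Zkscan series behaved differently, with 59 higher and 128 lower, 9 switched on and 38 off.

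Among factors switched on, Mef2c, Myocd and Tbx20 are known regulators of heart muscle. Myocd, the coactivator that drives muscle genes with serum response factor, was at 4.36, 4.57 and 4.50 on the mES arrays and 10.04, 10.69 and 10.96 on the CMp arrays, at least 47.4-fold higher (adjusted p = 3.86e-08). Tbx20, a T-box repressor and activator in heart, was at 9.09, 8.26 and 8.54 in CMp, at least 12.4-fold higher (adjusted p = 3.67e-08). Mef2c was at least 55.6-fold higher. Their weakest kept probes gave 1.53, 1.26 and 1.52. Homeobox factors of heart rose as well, from a level that the mES arrays detected, except that of Prox1, detected on 1 of them. Hopx, an atypical homeodomain protein, rose from 6.33, 6.11 and 6.26 to 13.30, 13.23 and 13.38 (7.07 ± 0.15, adjusted p = 5.34e-11). Irx3, of the conduction system, rose by 5.06 ± 0.18, Meis1, which restrains cardiomyocyte division, by 4.05 ± 0.23, and Prox1, a homeodomain factor of heart and lymphatics, by 5.09 ± 0.21 (adjusted p = 1.72e-09, adjusted p = 5.34e-08 and adjusted p = 4.46e-09).

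Other factors switched on are known from vessels, valves and connective tissue. Sox18, of endothelium, was at 4.64, 4.85 and 4.96 on the mES arrays and 10.35, 9.67 and 9.68 on the CMp arrays, at least 29.9-fold higher (adjusted p = 2.95e-08), and Sox17 was at least 19.2-fold higher. Sox9, of valves and cartilage, was at 10.02, 10.66 and 10.74 in CMp, at least 44.4-fold higher (adjusted p = 2.16e-09). Tcf21, a factor of cardiac fibroblasts, was at 9.63, 8.97 and 8.93, at least 18.1-fold higher, Zeb2 at least 14.1-fold and Ebf3 at least 18.9-fold. CMp replicate 1 was highest of the CMp arrays for Sox18 and Tcf21 and lowest for Sox17, Sox9, Zeb2 and Ebf3. Endothelial marker sums were lowest and fibroblast sums highest on that array, and their part in these levels was not tested. Tcf21 is itself one of the fibroblast markers summed. Ets1, an ETS factor of vessels and blood, rose by 5.68 ± 0.29 and Irf2, an interferon regulatory factor, by 5.59 ± 0.22 (adjusted p = 2.48e-08 and adjusted p = 3.16e-09). Esrrg, a nuclear receptor that drives oxidative genes, was switched on, at least 5.81-fold higher. Nfix and Zbtb20, factors linked to maturation in other tissues, rose, Nfix at least 46.3-fold by its tested probe and Zbtb20 by 5.25 ± 0.29. Another Nfix probe was detected on 1 mES array, and its weakest kept probe gave 1.96. In the authors' normalized matrix Ets1 ranged only from 7.35 to 7.49 and Nfix from 7.37 to 7.81. Both entries may belong to other probes.

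Basic leucine zipper factors rose in 25 of 35 cases and fell in 3, Atf2, Creb3l4 and Cebpd. Atf3, induced by stress, was at 4.98, 5.31 and 5.19 on the mES arrays and 12.70, 12.19 and 12.05 on the CMp arrays (7.15 ± 0.20, adjusted p = 4.11e-10). Fosb, an immediate early gene, rose by 6.29 ± 0.50, at 13.004, 11.32 and 11.18 on the CMp arrays, so that replicate 1 was the highest. Creb5 was switched on, at least 11.6-fold higher. Egr3 and Egr2, zinc finger factors of the early response, were switched on as well, at least 33.2-fold and at least 19.9-fold higher. GATA, KLF and SP factors rose in 12 of 24 cases and fell in 5, Klf2, Klf5, Sp1, Sp5 and Sp6, of which Klf2 and Sp6 are named after their values were seen. T-box genes were few, with Tbx20 and Tbx2 higher and Tbx4 and Eomes lower of 7. Basic helix-loop-helix factors gave 25 higher and 8 lower of 48, nuclear receptors 14 and 6 of 26, and ETS, IRF, STAT and REL factors 25 and 10 of 40.

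Other transcription factors also fell. Tfap2c, a factor of trophoblast, germ cells and naive stem cells, was at 11.87, 11.25 and 11.97 on the mES arrays and 4.24, 4.39 and 4.33 on the CMp arrays, at least 106-fold lower (adjusted p = 2.83e-10). Tfcp2l1, of the naive state, was at 12.66, 12.29 and 12.66 on the mES arrays and 5.09, 5.82 and 5.70 on the CMp arrays (-6.996 ± 0.21, adjusted p = 5.83e-10), and detected on every array. Gbx2, a homeobox gene downstream of STAT3 in stem cells, fell from 11.56, 12.60 and 11.58 to 4.54, 4.97 and 4.71, with 1 CMp array detecting it (-7.17 ± 0.33, adjusted p = 1.3e-08). Otx2, a factor of the primed state and forebrain, was at least 38.9-fold lower, and Sall4 changed by -6.97 ± 0.20. Sall4 was probed 3 times, and its weakest kept probe gave -1.19. A pair of nuclear receptors that act on Pou5f1 fell, with changes of -5.09 ± 0.27 for Nr5a2 and -3.93 ± 0.16 for Nr6a1 (adjusted p = 3.93e-08 and adjusted p = 4.46e-09). Etv5, an ETS factor downstream of FGF, fell by 4.997 ± 0.20 (adjusted p = 4.75e-09), and Elf3, an ETS factor of epithelia, was at least 14.8-fold lower.

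The zinc finger series was where most factors were switched off. Zscan10, a partner of Pou5f1 and Sox2, was at 9.70, 10.57 and 10.02 on the mES arrays and 4.26, 4.49 and 4.28 on the CMp arrays, at least 35-fold lower (adjusted p = 2.94e-09). Zfp985 was at 10.51, 10.72 and 10.54 on the mES arrays and 4.33, 4.37 and 4.70 on the CMp arrays, at least 49.2-fold lower (adjusted p = 7.44e-09). Zfp941, Zfp987 and Zbtb32 were at least 11.7-fold, at least 9.13-fold and at least 10.9-fold lower. Many such genes lie in clusters of close copies whose probes may share signal, so single members of the series are uncertain.

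**Figure D5:**
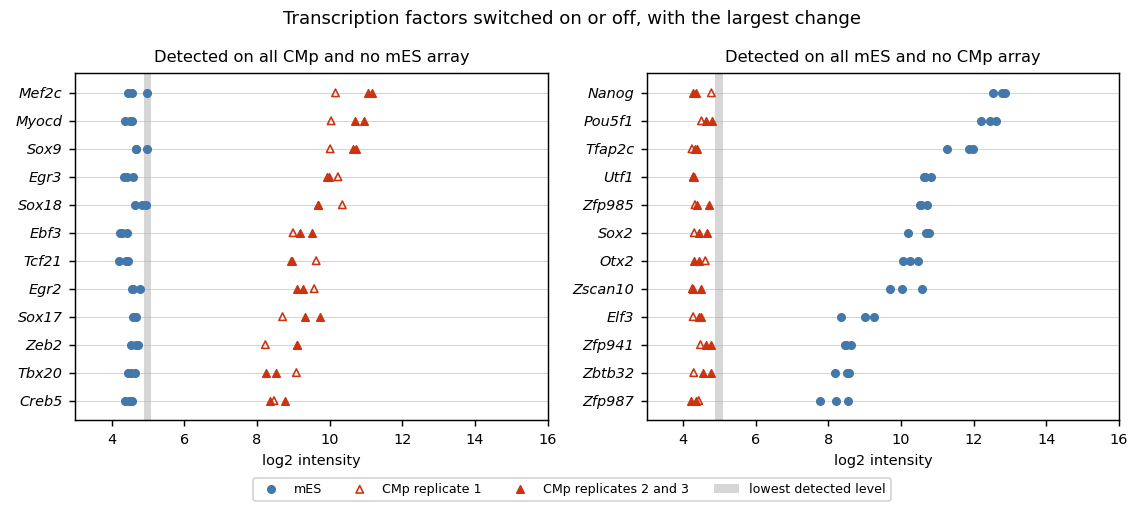
Log2 intensity (x axis) of the 12 transcription factors switched on (left) and the 12 switched off (right) with the largest log2 change, on each array; circles are mES, open triangles CMp replicate 1, filled triangles CMp replicates 2 and 3, grey the range of lowest detected levels. Undetected values lie at or below the grey band, where their order carries no information.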

How the data were processed

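Values were taken from the deposited scanner table, which per the file headers holds for each of 45281 probes a mean bead intensity that the authors had not normalized, and beside it the detection p-value of each probe on each array. The authors' deposited matrix holds log2 values normalized between arrays, made with lumi per the submitters' processing notes (version not given). It served as an alternative. For 18 of 226 named genes the intensity ranged at least 2-fold over the 6 arrays while the matrix ranged by less than 0.5, so such entries may belong to other probes. They were Fzd7, Rbfox1, Robo1, Slc4a4, Abcc9, Kif18a, Nup37, Cdh1, Vcam1, Ets1, Nfix, Fgfr2, Kif1b, Kif1c, Pacsin1, Dusp14, Chst12 and Atf2.

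Intensities were background-corrected with limma's nec (limma 3.58.1, R 4.3.3; offset 16), quantile-normalised and log2-transformed over all 9 arrays. A probe was kept where its detection p was under 0.01 on 3 arrays or more (19707 probes), of which 16962 had a single gene symbol in GEO's platform annotation, whose names can be old. The brightest kept probe stood for each of 10800 genes, and in 46 genes kept probes moved at least 2-fold in opposite directions. limma's lmFit and eBayes fitted 1 mean per group, and p-values were adjusted by Benjamini-Hochberg over all genes. Comparisons between different probes' levels were not made. The fit was tested on simulated data. The number of arrays limits the precision.

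The comparison, its gene lists and tests were chosen with earlier results of these data known. Named genes were, per list, up to 3 with the largest rise and 3 with the largest fall, all called and without overlap of the groups. Added to these were up to 12 transcription factors switched on and 12 switched off, and a set of anchor genes. The largest changes of all genes, mostly globin, sarcomere and pluripotency genes, are left out. Members that moved against their list, and those said to be named after their values were seen, fall outside that rule. Same-numbered replicates did not deviate together (correlations of 0.09, -0.04 and 0.09), so the numbers were not used as pairs. Alternatives were median scaling, no background correction, no detection filter or one over the 6 arrays, averaged probes, 6 arrays only, a replicate block, the authors' matrix and leaving out each array.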

Additional observations from a re-analysis of the deposited data

Results flagged for a closer look

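Probes without a single gene symbol entered no comparison. Of 2745 such probes that passed the detection filter, 324 were detected on 3 of 3 CMp arrays and 0 of 3 mES arrays, and 219 on 3 of 3 mES arrays and 0 of 3 CMp arrays. They are mentioned because a signal of one group lay in data outside the comparison, and their genes were not identified here.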

How the results depend on the processing

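The count of 8004 differing genes was 7255 to 8546 over the alternatives on the same arrays, and 7475 to 8216 when 1 array was left out. At least 2-fold differences numbered 5766, and 5690 to 5907 with 1 array left out, but 3576 without background correction and 2524 in the authors' normalized matrix. With the replicate block 8167 genes differed and 5778 at least 2-fold, and no gene named in the text changed its call. Of 226 named genes, 199 kept direction and call under every alternative run. Those that changed sign did so under median scaling (Smo -0.08003, Ell -0.08395, Ipo9 -0.0184, Thoc7 -0.1387, Ddx6 -0.1712, Med22 -0.0137), with kept probes averaged (Prpf31 -0.4043, Med22 -0.1787) or in the authors' matrix (Med22 -0.1433, Nup37 0.002462, an entry that may belong to another probe). For these the cause was not tested. A block for the slide was not run, because the headers give none. Probes near background set a limit on every fold of genes switched on or off, and small changes of 3 arrays against 3 are the least certain.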
